A study of Mus musculus with 24 samples.

Results

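The genes of the postsynaptic apparatus of the neuromuscular junction were examined for H3K27ac peaks in quadriceps myofibers. They were Chrna1, Chrnb1, Chrnd, Chrne, Chrng, Musk, Dok7, Lrp4, Rapsn and Colq, 10 of 21000 protein-coding genes in the reference. They were chosen by name. A peak was assigned to a gene when it overlapped the gene body by at least 1 bp or lay within 10 kb of a RefSeq start of that gene, which defined the gene's window. Of the 469078 peaks in the 8 lists, 226 met this rule.

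H3K27ac ChIP-Seq pulls down chromatin that carries acetylated histone H3, a mark of active promoters and enhancers, and the sequenced tags are compared with those of the input chromatin. Male and female C57BL/6J mice, 10 weeks of age at the onset of treatment, were injected i.p. either with vehicle (DMSO in PBS) or with 1 mg/kg prednisone once weekly, with 5 prednisone injections over 4 weeks and vehicle on the days between. Prednisone is a synthetic glucocorticoid that acts through the glucocorticoid receptor (GR), a ligand-activated transcription factor. Quadriceps myofibers were isolated with collagenase II, and the treated groups were sampled 4, 6 or 8 days after the last injection. This gave 8 groups: male vehicle, male day 4, male day 6, male day 8, female vehicle, female day 4, female day 6 and female day 8. Each group had 2 H3K27ac libraries and 1 input library, and was represented by 1 peak list. Whether the libraries were pooled before peak calling was not given in the sources used here. With 1 list per group and no values per library, differences between groups carry neither a replicate error nor a test, and the comparisons below are descriptions of the lists.

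At the neuromuscular junction, the motor nerve releases acetylcholine onto receptors that are packed into a small patch of the myofiber membrane. Nerve-derived agrin binds LRP4, LRP4 activates the kinase MuSK together with DOK7, and rapsyn then clusters the receptors. In innervated fibers the receptor genes are transcribed mainly by the few myonuclei under the synapse, through promoter elements that include the N-box, bound by the ETS factor GABP, and E-boxes, bound by myogenic factors. In these whole-fiber preparations, fewer synaptic nuclei and less acetylation per nucleus cannot be told apart.

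The depth behind the lists ranged from 7.52 M (megatags) for male day 4 to 50.6 M for male day 6. The lists held 17482 (male day 4) to 123249 (female day 6) peaks, and 5.39% (male day 6) to 47.3% (female day 6) of all tags lay in peaks. The lowest findPeaks score in a list, which is given in unscaled tags, ranged from 7 to 25. A normalized tag count is the number of tags in a peak per 10 M tags, and it was compared within a list and not between lists. Of 6 myofiber markers, 4 to 6 had a peak within 1 kb of a start in every list. Neuron markers had 0 to 2 of 3. Endothelial markers had 4 of 4 in male vehicle and in the 3 treated female lists, 3 in male day 6, 0 in male day 4, and 1 in male day 8 and female vehicle. Fibroblast markers had 3 or 4 of 4 in male vehicle and the 3 treated female lists and 0 or 1 elsewhere. Leukocyte markers had 1 or 2 of 4 in male vehicle and the 3 treated female lists and 0 elsewhere. Satellite cell markers had a start peak in female day 4 (1 of 3), female day 6 (1) and female day 8 (3) only. Male vehicle and the treated female lists, which had the most start peaks of the junction genes, thus also had the most start peaks of endothelial, fibroblast and leukocyte markers, and the part of these cells in the result was not tested. The share of all protein-coding genes with a start peak followed the same order. It was 54.9% in male vehicle, 54.3% to 69.9% in the treated female lists and 29.5% to 35.5% elsewhere. Of the other cell types reported here, satellite cell and neuron markers did not follow this order, with 0 of both in male vehicle.

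The first comparison asked at which junction genes the start was acetylated in each group. The start peaks were frequent in male vehicle and in treated females and sparse in treated males and in vehicle-treated females. In males, a peak lay within 1 kb of a start of 7 of the 10 genes in vehicle, beside 54.9% of all protein-coding genes. The count was 2 in male day 4 (31.8% of all genes), 1 in male day 6 (32.0%) and 3 in male day 8 (35.5%). In females, only Dok7 had a start peak in vehicle (29.5% of all genes). It was 8 in female day 4 (54.3%), 10 in female day 6 (69.9%) and 9 in female day 8 (62.5%). The 10 genes thus lay above the share of all genes in the 4 lists with many peaks and below it in the other 4 lists. With every list reduced to its 17482 peaks of highest score, the number of the shortest list, the counts were 2, 2, 1 and 3 in males (beside 29.9%, 31.8%, 28.3% and 34.7% of all genes) and 1, 5, 3 and 5 in females (beside 22.5%, 31.6%, 31.5% and 31.1%). Male vehicle then no longer stood above male day 4, and the 10 genes lay above the share of all genes in female days 4 and 8 only.

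**Figure D1:**
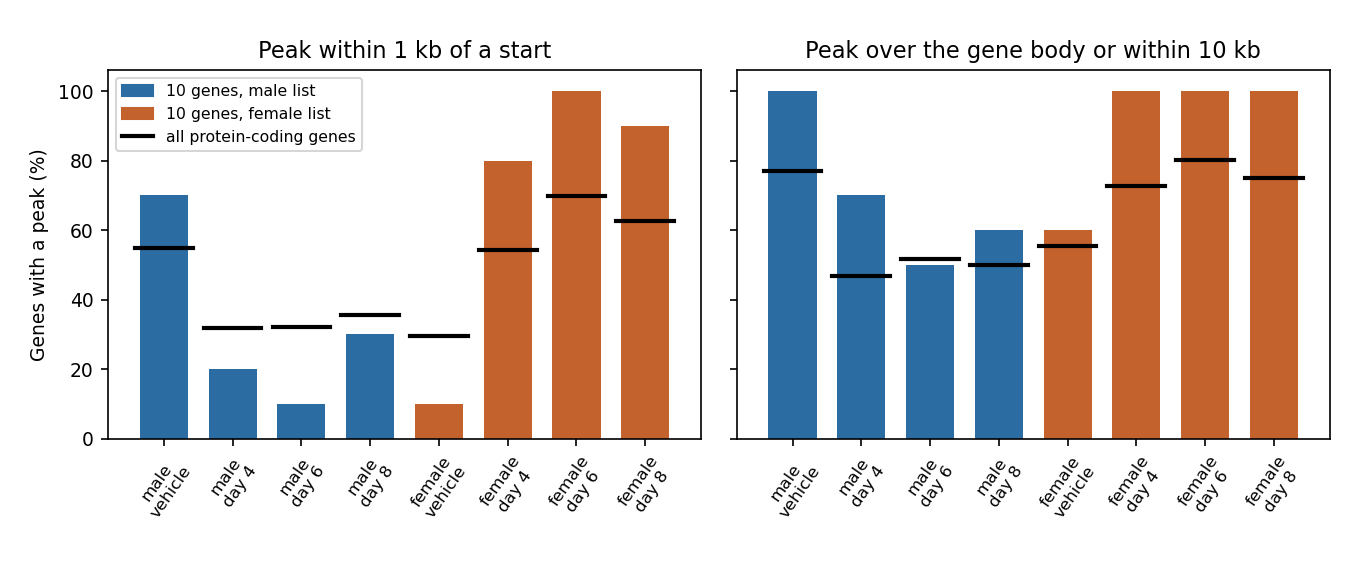
Share of the 10 junction genes (bars, in percent) and of all 21000 protein-coding genes (black lines) with an H3K27ac peak within 1 kb of a start (left) or over the gene body or within 10 kb of a start (right), for the 8 peak lists on the x axis. At the starts, the bars pass the lines in male vehicle and in female days 4, 6 and 8 and lie under them in the other 4 lists.

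A peak anywhere in the window was more frequent. In males, 10 of 10 genes had a window peak in vehicle (77.0% of all genes), and 7, 5 and 6 had one on days 4, 6 and 8 (46.9%, 51.6% and 50.0% of all genes). In females, 6 genes had a window peak in vehicle (55.3%), and all 10 had one on each later day (72.8% of all genes at day 4, 80.2% at day 6 and 75.0% at day 8). Chrnb1 and Dok7 had a window peak in all 8 lists. The other windows lacked peaks in 1 list (Chrng, Musk, Lrp4 and Colq), 2 lists (Rapsn), 3 lists (Chrnd and Chrne) or 4 lists (Chrna1). The median share of a window covered by peaks was larger for the 10 genes than for all genes in every list, at 10.1% and 3.95% in male vehicle and 23.8% and 8.73% in female day 6. In female vehicle these medians were 1.14% and 0.703%.

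Over the 8 lists, the 10 genes had 41 start peaks, 13 in male and 28 in female lists, when the highest peak of a gene in a list is counted. Of these, 25 covered the start base itself. None of the 10 genes had a start peak in all 8 lists, as 16.7% of all genes did, and none lacked one in every list, as 24.5% of all genes did. Among the start peaks of all genes in the same list, 29 of the 41 lay below the median by normalized tags and 12 lay above it. Those above were the start peaks of Dok7 in 6 lists, Rapsn in 4 lists and Lrp4 in 2 lists. The receptor subunits, Musk and Colq ranked below the median in each list where they had a start peak. These ranks are by the tags of the whole peak, not scaled for its width. By tags per kb among all peaks of a list, the genes did not divide in this way. In female day 6, Chrnb1 lay at percentile 97.5, Rapsn at 97.4, Dok7 at 93.5, Lrp4 at 86.3 and Chrnd at 6.01. The Dok7 start peak of male vehicle lay at 32.4 and that of Chrnb1 at 65.6.

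**Figure D2:**
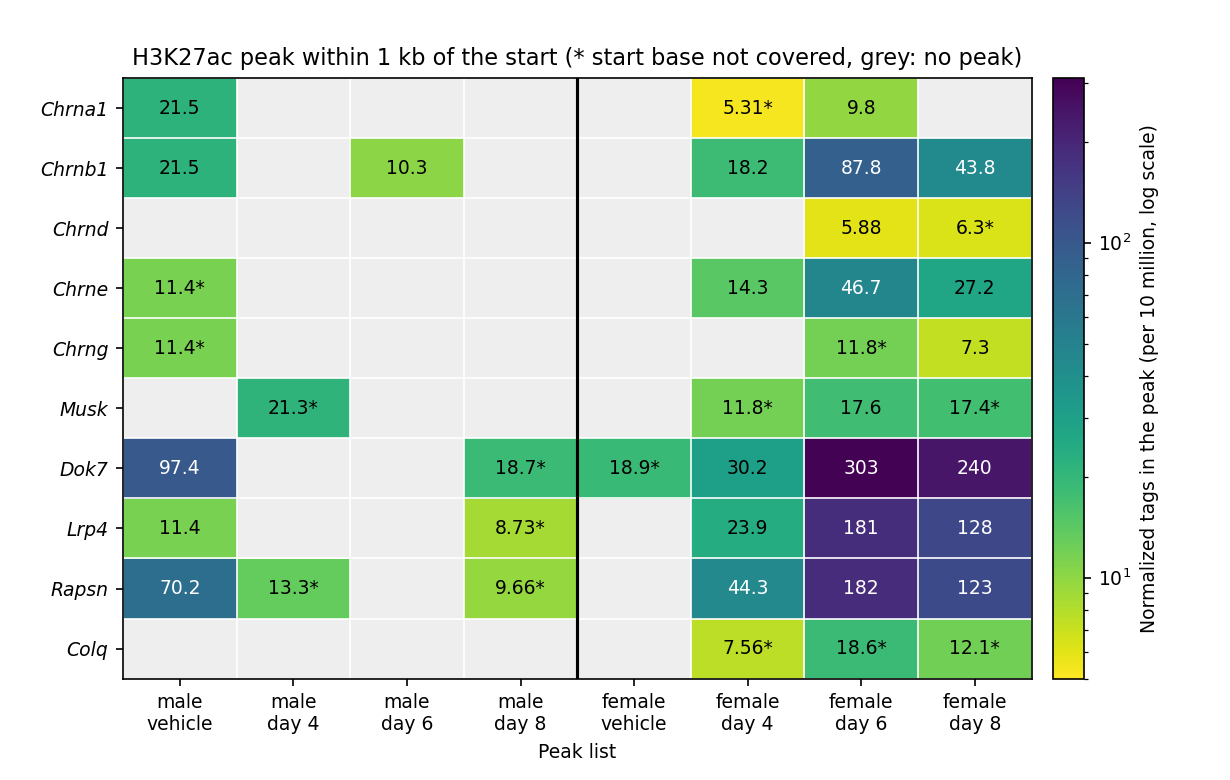
H3K27ac peaks within 1 kb of the start of each gene (rows) in each peak list (columns). Numbers and color (log scale) give the normalized tags per 10 M of the highest such peak, grey marks no peak, and an asterisk marks a peak that does not cover the start base. Values are to be read within a column: Dok7 (303 tags), Rapsn (182) and Lrp4 (181) lead in female day 6.

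The acetylcholine receptor of muscle is a pentamer that contains the products of Chrna1, Chrnb1 and Chrnd together with Chrng in fetal or denervated muscle or Chrne in adult innervated muscle. Promoters of 6 genes (Chrna1, Chrnb1, Chrne, Chrng, Musk and Dok7) were matched in the RefSeq promoter sequences of GRCm38.p6. Those of Chrnd, Lrp4, Rapsn and Colq were not analysed here. The 250 bases before the start were searched on both strands for the N-box CCGGAA, the E-box CANNTG and its form CAGCTG, the GR consensus ACANNNTGT and the MEF2 consensus. The promoters of the subunits with a change of expression at innervation and of Chrna1 are shown because these elements sit just before their starts, with N-box and E-box matches in capitals.
Chrna1 promoter, chr2:73580339-73580588, minus strand: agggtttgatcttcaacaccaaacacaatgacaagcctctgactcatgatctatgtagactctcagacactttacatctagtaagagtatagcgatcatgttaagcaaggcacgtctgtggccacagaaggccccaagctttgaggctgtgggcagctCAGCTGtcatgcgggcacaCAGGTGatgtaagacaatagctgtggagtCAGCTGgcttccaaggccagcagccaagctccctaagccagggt
Chrne promoter, chr11:70619195-70619444, minus strand: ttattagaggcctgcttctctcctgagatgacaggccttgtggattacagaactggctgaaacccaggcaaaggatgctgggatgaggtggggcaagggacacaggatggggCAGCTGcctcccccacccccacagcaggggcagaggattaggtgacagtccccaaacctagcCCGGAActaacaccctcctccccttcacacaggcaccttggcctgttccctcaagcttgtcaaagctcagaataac
Chrng promoter, chr1:87205561-87205810, plus strand: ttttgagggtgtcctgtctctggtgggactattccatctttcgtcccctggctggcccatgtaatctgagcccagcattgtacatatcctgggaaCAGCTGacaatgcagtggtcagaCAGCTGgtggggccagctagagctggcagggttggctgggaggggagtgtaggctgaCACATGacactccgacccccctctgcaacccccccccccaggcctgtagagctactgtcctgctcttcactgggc

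The N-box was found in 1 of the 6 promoters, that of Chrne, with its first base at position -76 from the start, and in 15.6% of 16853 promoters of this length. These shares were taken over 1 promoter per gene. Dok7 has a second annotated start, so that 7 windows were searched for the 6 genes. An E-box was found in 6 of the 7 windows and in 62.4% of all promoters, and the window before the second Dok7 start (chr5:35056822-35057071) held none. The form CAGCTG, which is one of the E-box forms and was counted in both, was found in 4 of the 7 windows (Chrna1, Chrne, Chrng and Musk) and in 11.8% of all promoters. In Chrna1 it began at positions -92 and -44, in Chrng at -155 and -132, in Chrne at -138 and in Musk at -68. Neither the GR consensus (5.29% of all promoters) nor the MEF2 consensus (0.487%) had a match in the 7 windows. Such a match is a run of letters and not a measured binding site. The 250 bases were overlapped by a peak of 5 lists in Chrnb1, 4 in Dok7, 3 in Chrne, 2 in Chrna1 and 1 each in Chrng and Musk.

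Chrna1 (Gene ID 11435, chr2:73563281-73580338, minus strand), the acetylcholine-binding subunit, had the fewest window peaks of the 10 genes, 7 over all lists. Its start peak held 21.5 normalized tags in male vehicle (68 tags counted, 4.02-fold over input), 5.31 in female day 4 (26 tags, 4.46-fold) and 9.80 in female day 6 (30 tags, 10.82-fold). The other 5 lists had no start peak of Chrna1. The female day 4 peak ended at position -911 from the start and did not cover the start base, unlike the peaks of male vehicle and female day 6. Outside the start, the region held by the most lists was centered at -4.92 kb (chr2:73584672-73585850), near the start of the antisense transcript Chrna1os. It held 19.6 normalized tags in female day 6 and 7.05 in female day 8 and no peak in the other lists.

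Chrnb1 (Gene ID 11443, chr11:69784036-69795937, minus strand) encodes the beta subunit, which the receptor carries in fetal and adult muscle. Its start peak held 21.5 normalized tags in male vehicle, 10.3 in male day 6, 18.2 in female day 4, 87.8 in female day 6 and 43.8 in female day 8. The 5 peaks covered the start base in every case. From 52 to 269 tags were counted in them, with folds over input from 3.45 in male day 6 to 22.39 in female day 6. The most shared region outside the start (chr11:69797572-69805476) was centered at -5.59 kb from the start and held peaks of 6 lists, and the starts of Fgf11, Tmem102 and G630025P09Rik lie there. Its summed normalized tags were 51.9 in male vehicle, 17.3 in male day 4, 8.10 in male day 8, 25.1 in female day 4, 204 in female day 6 and 94.4 in female day 8. The nearest coding start of this region was Fgf11, so its peaks are not specific to Chrnb1. Chrnb1 is also the gene with the highest rank among the subunits, at percentile 47.2 of the start peaks in female day 6.

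Chrnd (Gene ID 11447, chr1:87190597-87200070, plus strand), the delta subunit, had a start peak in 2 lists only. The start peak held 5.88 normalized tags (18 tags) in female day 6 and 6.30 (25 tags) in female day 8. These ranked at percentiles 0.695 and 1.83 of the start peaks of all genes in those lists, near the bottom of each list. Of the 8 regions in its window, 5 were nearest to the start of another gene, 4 of these to Prss56 and 1 to Chrng. The most shared of them (chr1:87185160-87186480), at -4.78 kb and nearest to Prss56, held 10.4 normalized tags in male vehicle, 15.3 in female day 6 and 7.55 in female day 8.

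Chrne (Gene ID 11448, chr11:70614883-70619194, minus strand) encodes the adult epsilon subunit. Its start peak held 11.4 normalized tags in male vehicle, 14.3 in female day 4, 46.7 in female day 6 and 27.2 in female day 8, and the other 4 lists had none. The 3 female peaks spanned the start and the N-box shown above, whereas the male vehicle peak began 329 bp downstream of the start. From 36 to 143 tags were counted in them, at 3.31- to 12.97-fold over input. A second region at -3.64 kb from the start (chr11:70621476-70624201), with Chrne as its nearest coding start, held peaks of 5 lists. Its summed normalized tags were 27.2 in male vehicle, 6.53 in male day 6, 21.0 in female day 4, 63.4 in female day 6 and 46.3 in female day 8. In male day 6 this region held the sole peak of the Chrne window, and its summed tags exceeded those of the start peak in the other 4 lists. These sums are not scaled for width. In female days 4, 6 and 8 its peaks were 1824, 2504 and 2606 bp wide, and those at the start 1108, 2010 and 1180 bp.

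Chrng (Gene ID 11449, chr1:87205811-87211835, plus strand) encodes the fetal gamma subunit. Its start peak held 11.4 normalized tags in male vehicle, 11.8 in female day 6 and 7.30 in female day 8. The female day 8 peak was the sole one to cover the start base, as the others ended at positions -908 and -994. A further female day 6 peak of 11.1 normalized tags (chr1:87206473-87207298) lay downstream of the start. The most shared region of the window (chr1:87212737-87216064) was at the start of the neighboring gene Eif4e2 and held peaks of 7 lists, with male day 4 as the exception. The peak held 47.8 normalized tags in male vehicle, 37.0 in male day 6 and 20.3 in male day 8. In females it held 11.6 in vehicle, 60.0 on day 4, 192 on day 6 and 118.6 on day 8. In male day 6, male day 8, female vehicle and female day 4, this was the sole peak counted for Chrng. Chrnd and Chrng are neighbors, and 1 region (chr1:87198158-87200206, with peaks of male vehicle and female day 6) lay in both windows.

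Among the signaling genes, Musk (Gene ID 18198, chr4:58285962-58374303, plus strand) encodes the receptor tyrosine kinase that organizes the postsynaptic membrane. Its promoter is shown with the E-boxes in capitals, of which the last is the CAGCTG form.
Musk promoter, chr4:58285712-58285961, plus strand: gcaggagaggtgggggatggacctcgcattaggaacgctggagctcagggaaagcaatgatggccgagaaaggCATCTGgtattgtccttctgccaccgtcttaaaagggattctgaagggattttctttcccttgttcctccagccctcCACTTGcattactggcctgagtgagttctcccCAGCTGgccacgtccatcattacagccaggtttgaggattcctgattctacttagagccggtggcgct

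The highest start peak of Musk held 21.3 normalized tags in male day 4, 11.8 in female day 4, 17.6 in female day 6 and 17.4 in female day 8. The male day 4 peak rested on 16 tags counted and began 513 bp downstream of the start. The female peaks rested on 54 to 69 tags. In female day 6, the peak lay over the start (chr4:58285282-58285992), whereas in male day 4, female day 4 and female day 8 the peaks lay downstream (chr4:58286034-58287226), so that no base was shared between the 2 regions. Musk was the sole gene of the 10 with a start peak in male day 4 and none in male vehicle. The most shared region outside the start lay in an intron 50.3 kb downstream (chr4:58335592-58336915) and held 14.2 normalized tags in male vehicle, 10.3 in male day 6 and 14.1 in female day 8. Of the 14 regions of Musk, 10 were held by a single list.

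Lrp4 (Gene ID 228357, chr2:91457531-91513901, plus strand) encodes the agrin receptor of the myofiber. Its start peak held 11.4 normalized tags in male vehicle, 8.73 in male day 8, 23.9 in female day 4, 180.9 in female day 6 and 127.7 in female day 8. In female days 6 and 8 these were broad peaks of 6178 and 6002 bp that ran from the start into the gene, while the other 3 were 633 to 1490 bp wide. Within their lists, the broad peaks ranked at percentiles 73.7 and 79.2 of the start peaks of all genes. The merged start region (chr2:91456822-91463003) also held a peak of female vehicle, with 5.45 normalized tags and 15 tags counted, which lay over 1 kb inside the gene. The next region of Lrp4, 18.5 kb downstream (chr2:91473977-91478005), held 7.59 normalized tags in male vehicle, 5.11 in female day 4, 57.5 in female day 6 and 50.3 in female day 8.

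Dok7 (Gene ID 231134, chr5:35056766-35087839, plus strand) encodes the cytoplasmic adaptor that activates MuSK, and it had the most window peaks of the 10 genes, 43 over all lists. It has 2 annotated starts, at 35056766 and 35057072. Its highest start peak held 97.4 normalized tags in male vehicle, 18.7 in male day 8, 18.9 in female vehicle, 30.2 in female day 4, 303.4 in female day 6 and 240.0 in female day 8. Those of male vehicle, female day 6 and female day 8 were 4413, 7156 and 9393 bp wide and ranked at percentiles 93.9, 88.1 and 93.3 of the start peaks in their lists. The other 3 peaks ranked near the median, at percentiles 51.4 to 54.2. Peaks covered 35.6% of the Dok7 window in male vehicle and 4.03%, 4.88% and 7.77% in males on days 4, 6 and 8. The shares for females were 1.55% with vehicle and 24.4%, 69.5% and 49.1% on days 4, 6 and 8. The window coverage of Dok7 ranked at percentile 91.9 or higher among all genes in 5 lists and was lowest, at percentile 59.7, in female vehicle.

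The Dok7 start and its first intronic stretch formed the only merged region of the 10 genes that held a peak of all 8 lists (chr5:35054504-35066929). Its summed normalized tags were 160 in male vehicle, 43.9 in male day 4, 7.52 in male day 6 and 35.8 in male day 8. They were 18.9 in female vehicle, 83.3 in female day 4, 380 in female day 6 and 240.0 in female day 8. No base of this region was covered by more than 6 lists. Without the male day 4 list, the list with the lowest depth, 2 regions held peaks of all remaining lists, and with every list reduced to 17482 peaks none did. The second region of Dok7 (chr5:35067591-35077286), 15.4 kb downstream, held peaks of 6 lists, all but male day 4 and female vehicle. Its summed normalized tags were 156 in male vehicle, 22.4 in male day 6, 20.6 in male day 8, 54.5 in female day 4, 309 in female day 6 and 224 in female day 8.

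In each of these Dok7 regions a core of 501 bp was covered by peaks of 6 lists (chr5:35059808-35060308 and chr5:35073775-35074275), and the central 300 bases of both are shown because no other intronic peak sequence of the 10 genes more than 1 kb from a start was shared by as many lists. E-boxes and the GR consensus are in capitals, and neither stretch overlaps an annotated exon.
Dok7 first intronic core, chr5:35059909-35060208, plus strand: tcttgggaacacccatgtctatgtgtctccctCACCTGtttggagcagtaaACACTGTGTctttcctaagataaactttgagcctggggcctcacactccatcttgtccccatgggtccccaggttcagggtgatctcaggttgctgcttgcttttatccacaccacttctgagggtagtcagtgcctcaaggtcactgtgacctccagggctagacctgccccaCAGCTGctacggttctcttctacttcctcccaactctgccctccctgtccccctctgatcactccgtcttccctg
Dok7 second intronic core, chr5:35073876-35074175, plus strand: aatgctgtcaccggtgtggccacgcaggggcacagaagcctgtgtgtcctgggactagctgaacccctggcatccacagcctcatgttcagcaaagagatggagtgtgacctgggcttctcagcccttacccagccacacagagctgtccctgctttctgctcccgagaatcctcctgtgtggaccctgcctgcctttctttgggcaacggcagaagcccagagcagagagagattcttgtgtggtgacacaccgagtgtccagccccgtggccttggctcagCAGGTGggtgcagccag

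The first core, covered in male vehicle, male day 4, male day 8 and female days 4, 6 and 8, held 3 E-boxes over its 501 bases, 1 of them CAGCTG, and 1 match to the GR consensus (ACACTGTGT in the sequence). The second core held 2 E-boxes, no CAGCTG and no GR consensus. Neither held an N-box or the MEF2 consensus. Among 10657 peaks of this length in male day 4, 90.4% held an E-box, 24.4% CAGCTG, 12.2% the GR consensus, 10.1% the N-box and 0.816% the MEF2 consensus. Peaks on 1 autosome were left out of these shares, and the second core was not covered by a male day 4 peak.

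**Figure D3:**
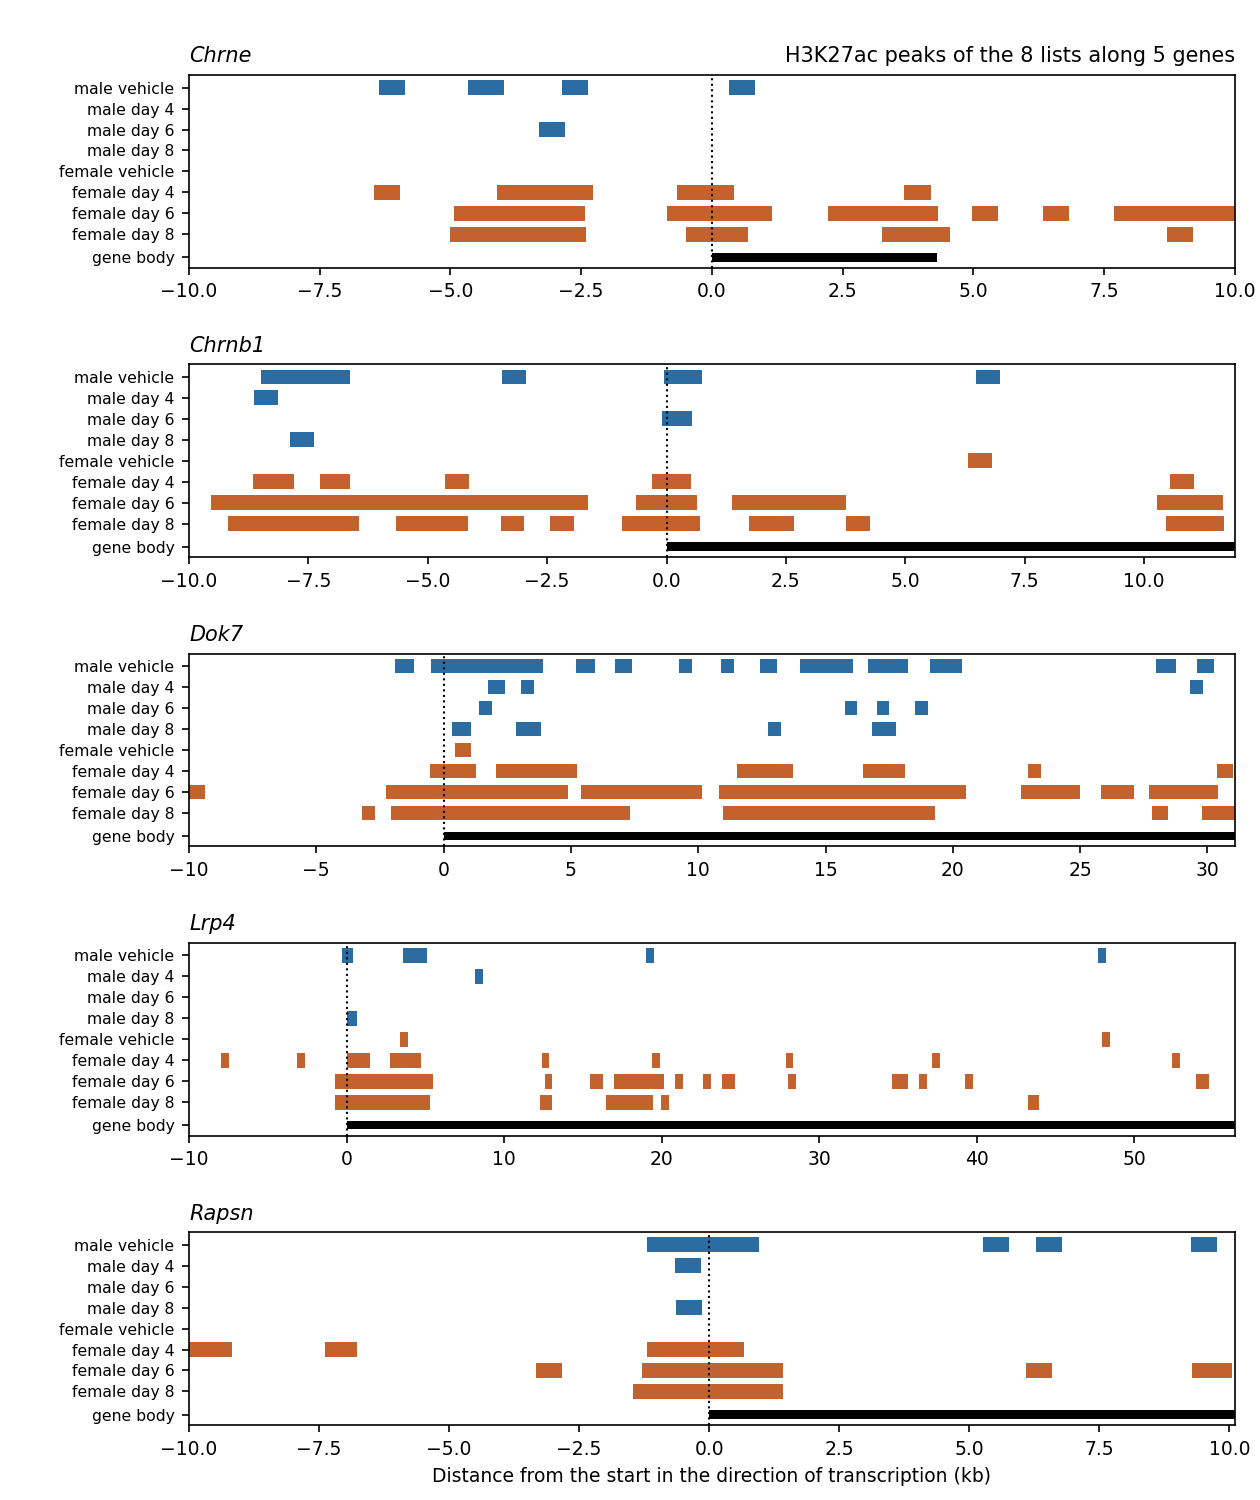
Extent of the H3K27ac peaks (blue for male lists, orange for female lists) along 5 junction genes, by distance in kb from the annotated start (dotted line) in the direction of transcription. The black bar is the gene body. Peaks cover 35.6% of the Dok7 window in male vehicle, 69.5% in female day 6 and 49.1% in female day 8, and 1.55% to 24.4% in the other 5 lists. Of the 14 Rapsn peaks, 6 lie in the region at the start.

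Rapsn (Gene ID 19400, chr2:91035627-91045729, plus strand) encodes rapsyn, the scaffold that binds the receptors from inside the fiber. Its start peak held 70.2 normalized tags in male vehicle, 13.3 in male day 4, 9.66 in male day 8, 44.3 in female day 4, 182.5 in female day 6 and 123.1 in female day 8. Male day 6 and female vehicle had none. The male day 4 peak rested on 10 tags and the male day 8 peak on 31, and both ended just upstream of the start, at positions -150 and -133. The other 4 peaks covered the start, were 1855 to 2890 bp wide and ranked at percentiles 69.2 to 86.4 of the start peaks in their lists. All 6 fell into 1 region (chr2:91034153-91037042). Of the other regions, 2 were held by 2 lists, male vehicle and female day 6 in both cases. The one 9.65 kb downstream in an intron (chr2:91044887-91045678), nearest to Psmc3, held 13.3 and 15.3 normalized tags, and the one 6.44 kb downstream (chr2:91041722-91042417), nearest to Rapsn, held 9.17 and 10.4.

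Colq (Gene ID 382864, chr14:31523084-31577383, minus strand) encodes the collagen tail that anchors acetylcholinesterase in the synaptic cleft. It had a start peak in the treated female lists only, with 7.56 normalized tags at day 4 (37 tags, 19.03-fold over input), 18.6 at day 6 (57 tags, 5.61-fold) and 12.1 at day 8 (48 tags, 4.80-fold). None of these covered the start base, as they began 757, 288 and 792 bp downstream of it. Colq had the most regions of the 10 genes, 25, of which 19 were held by a single list. Outside the start, 3 intronic regions were held by 3 lists each, centered 8.17, 20.9 and 39.8 kb downstream. The one at 20.9 kb (chr14:31555660-31557404) was chosen by its summed normalized tags and held 10.4 normalized tags in male vehicle, 18.0 in female day 6 and 22.2 in female day 8. Most of the regions lay in its introns.

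**Figure D4:**
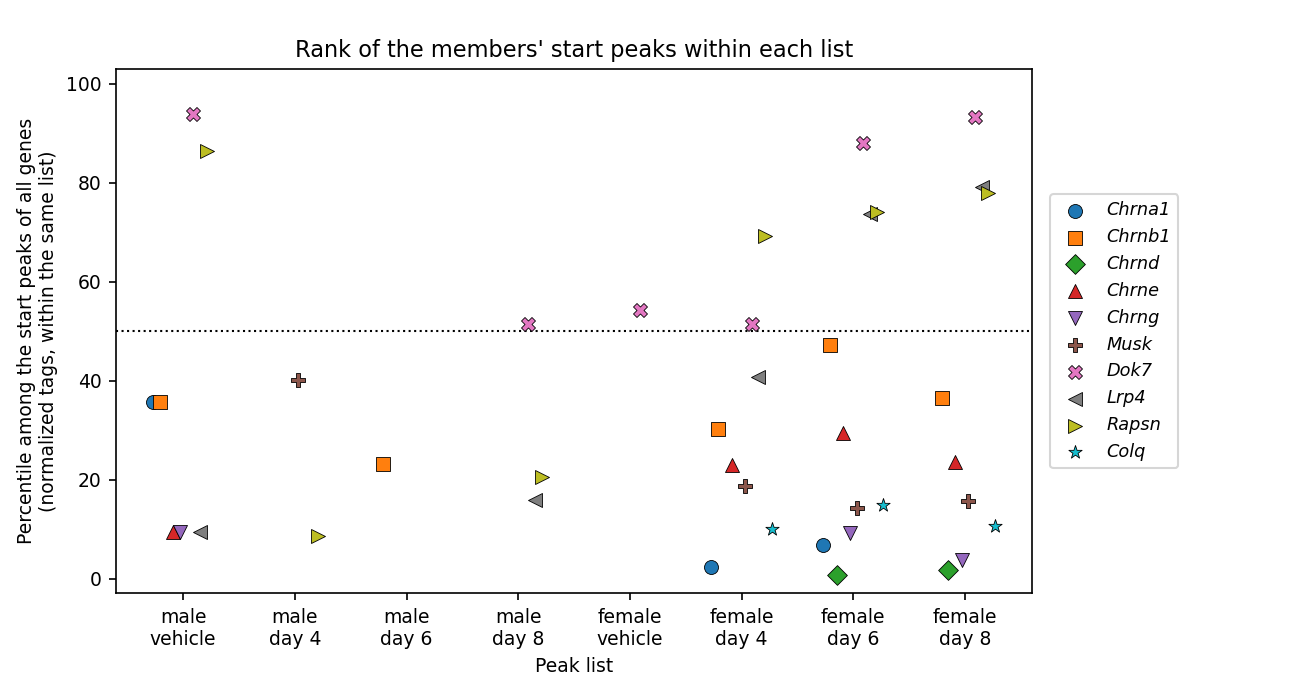
Rank of each gene's start peak by normalized tags among the start peaks of all protein-coding genes in the same list (y axis, percentile) for the 8 peak lists (x axis). Points above the dotted median belong to Dok7, Rapsn and Lrp4, and the receptor subunits, Musk and Colq lie below it.

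Merged over the 8 lists, the peaks formed 104 regions. Of these, 62 (59.6%) were held by 1 list, 20 by 2, 11 by 3, 2 by 4, 3 by 5, 4 by 6, 1 by 7 and 1 by 8 lists. Regions of female lists only numbered 59 (56.7%), regions of male lists only 17 (16.3%), and 28 (26.9%) held peaks of both sexes. Of all 249990 merged regions of the 8 lists, 70.6% were held by 1 list, 57.1% by female lists only, 24.0% by male lists only and 18.9% by both sexes. By its middle, and counting the shared region for both Chrnd and Chrng, 58 of 105 gene-region pairs lay in introns, 22 upstream of the start, 12 in exons, 9 at the start and 4 downstream of the gene. In 29 pairs the nearest coding start belonged to another gene.

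The study followed peaks that vehicle lacks at day 4, and the same comparison was made in the windows of the 10 genes, within each sex. A day 4 gain was a day 4 peak that no vehicle peak of that sex overlapped by 1 bp or more. The sexes differed in direction, with most junction start peaks of male vehicle missing at day 4 and most junction start peaks of female day 4 missing in vehicle. At the starts, males gained 1 gene (Musk, beside 1.73% of all genes) and lost 6 (Chrna1, Chrnb1, Chrne, Chrng, Dok7 and Lrp4, beside 24.8% of all genes). Females gained 7 (Chrna1, Chrnb1, Chrne, Musk, Lrp4, Rapsn and Colq, beside 25.9%) and lost 0 (beside 1.1%). The lists differ in depth and number of peaks in the same direction, from 87600 to 17482 peaks in males and from 38861 to 67503 in females. With every list reduced to the 17482 peaks of highest score, males gained 2 (Musk and Rapsn, beside 11.9% of all genes) and lost 2 (Chrnb1 and Dok7, beside 9.96%), and females gained 5 (beside 16.9%) and lost 1 (Dok7, beside 7.77%).

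Over the whole windows, 3 of 9 male day 4 peaks were gains (33.3%, Wilson 95% interval 12.1 to 64.6), beside 45.4% of all male day 4 peaks. They lay at the start of Musk (21.3 normalized tags) and in introns of Lrp4 (14.6) and Colq (13.3) and rested on 10 to 16 tags. In females, 35 of 38 day 4 peaks were gains (92.1%, 79.2 to 97.3), beside 81.9% of all female day 4 peaks. They lay in the windows of 9 genes, with 8 at Lrp4, 5 each at Chrnb1, Dok7 and Colq, 4 at Chrne, 3 at Rapsn, 2 each at Chrnd and Musk and 1 at Chrna1. Chrng had none, since its female day 4 peak at the Eif4e2 start was also present in vehicle. The intervals cover counting error only. With lists of equal length, there were 7 male and 12 female gains. The male day 4 list is the shortest and was not reduced, so the 7 were among the same 9 peaks. The share of all day 4 peaks that were gains is not given for this setting.

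None of the 3 male gains overlapped a peak of male day 6 or day 8. Of all male gains, 5.84% did so at day 6 and 5.01% at day 8. Of the 35 female gains, 19 (54.3%) overlapped a peak at day 6 and 18 (51.4%, Wilson 95% interval 35.6 to 67.0) at day 8, beside 50.3% and 43.6% of all female gains. In all, 17 were present at both days, 3 at 1 of these days and 15 at neither. Of all 55291 female gains, 20865 were present at both days, 10203 at 1 of them and 24223 at neither.

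All 5 gains of Chrnb1 and 4 of 5 gains of Dok7 were present at both days, as were 3 of 4 of Chrne and 3 of 8 of Lrp4. A gain is assigned to a gene by its window, and of these, 3 of the 5 at Chrnb1 were nearest to the start of Fgf11 or Tmem102, 1 of the 4 at Dok7 to that of Lrpap1 and 1 of the 3 at Chrne to that of 4930544D05Rik. Of the gains of Colq, 1 of 5 was present at both days, and of those of Rapsn, 1 of 3, in both genes the gain at the start. The gains of Chrna1 and Chrnd were at neither day. The 17 gains present at both days held a median of 11.8 normalized tags (range 4.70 to 53.1), whereas the 15 at neither day held a median of 5.31 (4.49 to 10.4). The medians over all female gains are not given here, so this difference cannot be called particular to the junction genes. Of the 17, 11 overlapped a peak of male vehicle, beside 52.8% of all female gains present at both days, and of the 15, 2 did, beside 5.44% of all female gains at neither day.

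**Figure D5:**
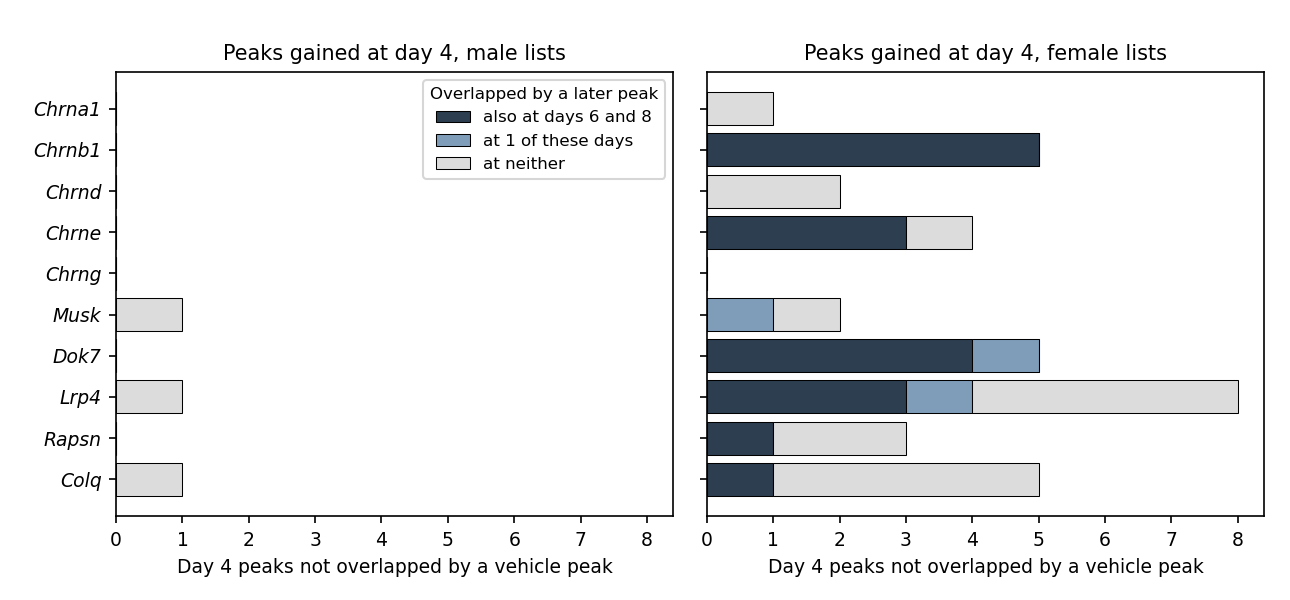
Number of day 4 peaks that the vehicle list of that sex lacks (x axis) in the window of each gene (y axis), for male (left) and female lists (right), shaded by overlap with the peaks of days 6 and 8. Males have 3 such peaks, none of them present later, and females 35, with those of Chrnb1 and Dok7 mostly present at both later days.

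Vehicle peaks were followed in the same way. Of the 50 male vehicle peaks in the windows, 5, 7 and 7 overlapped a peak of day 4, day 6 and day 8. Of all 87600 male vehicle peaks, 10.3%, 13.1% and 12.1% did so. No later peak overlapped 37 of the 50 (74.0%), beside 80.3% of all male vehicle peaks. Of the 9 female vehicle peaks, 3 overlapped a peak on each of these days. Of all 38861 female vehicle peaks, 36.6%, 39.6% and 41.0% did so on days 4, 6 and 8. No later peak overlapped 6 of the 9 (66.7%), beside 53.9% of all female vehicle peaks.

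A wider list of 41 genes of the junction was counted for start peaks in the same way. It contained agrin and acetylcholinesterase, partners of MuSK, the neuregulin pathway with the transcription factors that act at the synapse, scaffold and matrix genes, genes of activity-dependent repression, and glycosylation genes mutated in congenital myasthenia. In males, 33 of the 41 (80.5%) had a start peak in vehicle, beside 54.9% of all genes. On days 4, 6 and 8 the numbers were 22 (53.7%, beside 31.8%), 18 (43.9%, beside 32.0%) and 25 (61.0%, beside 35.5%). In females, 20 (48.8%) had a start peak in vehicle, beside 29.5% of all genes, and on the later days 35 (85.4%, beside 54.3%), 40 (97.6%, beside 69.9%) and 38 (92.7%, beside 62.5%). Of the 41, 13 (31.7%) had a start peak in all 8 lists, beside 16.7% of all genes, and each had one in at least 1 list.

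Genes among the 13 were named by their highest findPeaks score over the lists, which is in unscaled tags and so cannot be compared between lists of different depth. They included Hdac4, a deacetylase that relays denervation to the receptor genes, Gabpa and Gabpb1, the subunits of the N-box-binding factor GABP, Cttn, an actin-binding partner of the agrin pathway, and Syne1, a nuclear envelope protein enriched at synaptic nuclei. The highest-scoring start peak of Hdac4 held 183.2 normalized tags, that of Gabpa 396.1 and that of Gabpb1 295.5, all in female day 6. The Gabpa peak also held the start of Atp5j and the Gabpb1 peak that of A630026N12Rik. Cttn had its highest score in male day 6, the deepest list (30.1 normalized tags, 3.18-fold over input), and Syne1 in female day 8 (81.3). Agrn, which encodes agrin, had a start peak in 5 lists and Ache, which encodes acetylcholinesterase, in 4, the same 4 lists as those with many peaks. The highest-scoring Agrn peak, in female day 6, also held the starts of AW011738 and Isg15. Utrn, which encodes the synaptic cytoskeletal protein utrophin, had one in female days 6 and 8 only. Within the MuSK signaling genes, 5 of 10 had a start peak in all lists, beside 16.7% of all genes. The numbers were 5 of 13 scaffold and matrix genes, 2 of 7 in the neuregulin group and 1 of 4 in activity-dependent repression. They were 0 of 5 glycosylation genes and 0 of 2 for agrin and acetylcholinesterase.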

How the data were processed

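The authors profiled H3K27ac in quadriceps myofibers of 8 groups of mice, with 16 H3K27ac and 8 input libraries. The submitters' processing notes name mm10, Bowtie2 2.2.6, TopHat2 2.1.0 and HOMER. Peaks were called with HOMER findPeaks against input, with a fold over input of at least 2. The authors deposited 1 peak list per group. The deposited normalized tag count is a signal per 10 M tags (megatags), and the deposited findPeaks score is in unscaled tags. The deposited H3K27ac and input tags in each peak are a signal as well. The fold over input is a ratio that the authors deposited. The deposited p-value of each peak was not used. For male day 4 and female day 6, depth was recovered from the deposited tags as counted over the normalized tags. For the other lists it was recovered from the steps between low deposited values. The tags counted follow from this depth.

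Peaks were placed against 45756 RefSeq transcripts of GRCm38.p6 (mm10) with Python 3.11.15, pandas 2.3.3 and numpy 2.4.6, and no peak ended past its chromosome. For a start peak, the highest peak within 1 kb of a start was taken. Overlapping peaks of the lists were merged into regions. A percentile is the share of values in the list below the value. The 10 genes, the gene lists and the cell type markers were chosen with earlier results of these data known. All 10 genes were named, with their start regions and the most widely shared other region, and of the wider list the 6 genes in the most lists with the highest score. Some results that fall under these rules are not reported here. Agrn, Ache and Utrn were named after their values were seen. Promoters and Dok7 cores were searched for motifs, and start regions were not. Overlap counts were tested on simulated data and equaled those of bedtools 2.31.1 for 2000 of 2000 intervals, 200 of 200 planted gains were called and 18 of 18 planted motifs were found. The alternatives were the start distance, the window, lists of equal length, a fold over input of at least 4, the overlap rule and the merging distance. The list without male day 4 was added after seeing the data.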

Additional observations from a re-analysis of the deposited data

Results flagged for a closer look

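Between vehicle and day 4, several counts moved in opposite directions in males and females, and these differences were not tested. Peaks in the windows of the 10 genes went from 50 to 9 in males and from 9 to 38 in females. Genes with a start peak went from 7 to 2 in males and from 1 to 8 in females. Genes with a peak in the window went from 10 to 7 in males and from 6 to 10 in females. With lists of equal length, this last count went from 6 to 7 in males and from 4 to 7 in females, so the male direction turned. The shares of all genes with a window peak then went from 47.2% to 46.9% in males and from 39.8% to 45.9% in females. Genes with a start peak then numbered 2 in both male lists, beside 29.9% of all genes in vehicle and 31.8% at day 4.

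The same crossing was seen in the window peaks of 8 of the 10 genes, beside 46.4% of all 21000 protein-coding genes and 54.7% of the 17802 with a window peak in any of these 4 lists. For Dok7 the number went from 12 to 3 in males and from 1 to 6 in females, for Lrp4 from 4 to 1 and from 2 to 9, and for Colq from 8 to 1 and from 1 to 5. For Chrnb1 it went from 4 to 1 in males and from 1 to 5 in females, for Chrne from 4 to 0 and from 0 to 4, and for Rapsn from 4 to 1 and from 0 to 3. For Chrnd it went from 3 to 1 in males and from 0 to 2 in females, and for Chrna1 from 3 to 0 and from 0 to 1. The number of peaks in the whole lists crossed in the same way, from 87600 to 17482 in males and from 38861 to 67503 in females. The depth crossed likewise, from 31.6 to 7.52 M tags in males and from 27.5 to 49.0 M tags in females. Their part in the counts was not tested.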

How the results depend on the processing

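Of 88 alternative values, 62 were within 1.5 times the main value and 26 were not, and the cause was not tested. With lists of equal length, start-peak genes numbered 2 in male vehicle, 5 in female day 4, 3 in female day 6 and 5 in female day 8. Window-peak genes then numbered 6 in male vehicle (beside 47.2% of all genes) and 6 in female day 6 (beside 47.0%). With 7 in male day 4 (beside 46.9%), the male change from vehicle turned, while the share of all genes stayed about level. No region then held all 8 lists. Day 4 gains then numbered 7 in males, of which 1 was present at day 8, and 12 in females, of which 6 were. The shares over all gains are not given for this setting, so these counts cannot be set against them. Starts gained in males numbered 2, starts lost 2 in males and 1 in females. When a peak had to cover the start base, 0 genes were counted in male day 4, male day 8 and female vehicle and 5 in female day 4, and males gained 0 starts. Within 2 kb of a start, 4 genes were counted in male day 4 and 2 in male day 6. At a fold over input of at least 4, start-peak genes numbered 0 in male day 6 and 1 in male day 8, window-peak genes 3 in male day 6, and no region held all lists. Without the male day 4 list, an alternative chosen after seeing the data, 2 regions held all lists. The window of 5 kb, the nearest-start rule, the 50% overlap, the 1 kb tolerance and merging within 500 bp moved no count beyond 1.5 times.

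No paired analysis was possible because each group had 1 peak list and no values per library were used here. Leaving out a replicate was not run for the same reason. The male day 4 list rests on 7.52 M tags, and whether peaks missing there reflect depth was not tested. Its start peaks of the 10 genes rest on 10 and 16 tags. Peak width and number depend on depth and on enrichment, which differed between the lists.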
